A study of Mus musculus with 6 samples.

Results

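The 8 genes described here are Cps1, Otc, Ass1, Asl, Arg1, Nags, Slc25a15 and Gls2, which encode the enzymes of the urea cycle, its ornithine carrier, its activating enzyme and the liver glutaminase that supplies it with ammonia. They were chosen by name as members of the pathway, by a rule that used no measured value but with earlier results of these data known, and were found by Ensembl identifier among the 56884 genes of the mouse count table. All 8 were among the 18018 mouse genes with at least 10 counts over the libraries, which were the genes tested. The 6 RNA-seq libraries came from livers of male BALB/c (nu/nu) mice, athymic animals that lack mature T cells, labelled as 6 weeks old and carrying orthotopically implanted human HCC cells. The HCC line was QGY-7703. After 1 week the mice received AAV8 through the tail vein, and they were followed for another 3 weeks. The vector carried a control siRNA in the 3 siControl libraries (genotype label WT) and a siRNA against mouse Aatf in the 3 siAATF libraries (genotype label KD), in both groups under the TBG promoter, which is active in hepatocytes. The labels call every sample liver without saying which portion was taken, and they do not tie libraries to animals, so that p-values measure the spread between these libraries, which may be partly technical.

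The urea cycle turns ammonia, which is toxic to the brain, into urea for excretion, and the complete cycle runs in hepatocytes. Glutaminase 2 releases ammonia from glutamine in the mitochondria. Carbamoyl phosphate synthetase 1 joins this ammonia to bicarbonate, for which it needs N-acetylglutamate, the product of Nags. Ornithine transcarbamylase then makes citrulline, which leaves the mitochondria, and Ass1, Asl and Arg1 carry the cycle through argininosuccinate and arginine to urea and ornithine. The carrier encoded by Slc25a15 returns ornithine to the mitochondria. Periportal hepatocytes hold most of these enzymes, while the hepatocytes next to the central vein take up the remaining ammonia with glutamine synthetase, the product of Glul.

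Sequences around the transcript start of 7 of these genes, all but Cps1, were read from GRCm39. Each window ran from 250 bases before the start of the canonical gencode transcript to 50 bases after it. The Asl window (chr5:130053811-130054110, minus strand) lies within the deposited span of the gene, 130040099 to 130058088, and is not upstream of it. The windows of Otc (chrX:10118253-10118552, plus strand) and Arg1 (chr10:24803467-24803766, minus strand) are printed because, relative to hepatocyte markers, Otc had the highest value of the 8 genes and Arg1 the lowest. Arg2 (chr12:79177274-79177573, plus strand) is printed as the other arginase gene, which moved in the opposite direction to Arg1. Capitals mark the motifs found on either strand.
Otc: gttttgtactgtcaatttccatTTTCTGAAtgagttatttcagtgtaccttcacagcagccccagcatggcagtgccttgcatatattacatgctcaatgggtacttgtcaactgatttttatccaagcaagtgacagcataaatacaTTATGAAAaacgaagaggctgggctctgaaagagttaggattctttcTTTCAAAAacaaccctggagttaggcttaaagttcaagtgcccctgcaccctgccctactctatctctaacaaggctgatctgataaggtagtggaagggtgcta
Arg1: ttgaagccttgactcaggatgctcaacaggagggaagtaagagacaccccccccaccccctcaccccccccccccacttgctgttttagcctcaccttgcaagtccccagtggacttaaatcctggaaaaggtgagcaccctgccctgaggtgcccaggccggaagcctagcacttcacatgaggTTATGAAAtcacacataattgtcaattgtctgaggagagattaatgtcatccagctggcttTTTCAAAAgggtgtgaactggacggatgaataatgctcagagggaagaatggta
Arg2: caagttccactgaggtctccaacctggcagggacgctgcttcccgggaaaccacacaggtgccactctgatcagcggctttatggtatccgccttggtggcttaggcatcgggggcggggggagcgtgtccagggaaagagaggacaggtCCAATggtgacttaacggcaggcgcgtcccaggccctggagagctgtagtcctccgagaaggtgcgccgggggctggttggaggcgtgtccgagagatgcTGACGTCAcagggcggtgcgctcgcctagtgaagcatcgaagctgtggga
The capitals in Otc and Arg1 are matches to the C/EBP-type motif TTNNGNAA on either strand, of which Otc held 3 and Arg1 held 2. The capitals in Arg2 are a CCAAT box and, further downstream, the cyclic AMP element TGACGTCA. Over the windows of the 7 urea cycle genes other than Cps1, CCAAT was found in 1 (Gls2) and TTNNGNAA in 2 (Otc and Arg1). Of all 21770 promoters of protein-coding genes, 39.9% held CCAAT and 40.5% held TTNNGNAA. The TATA box TATAAA, the HNF4-type motif CAAAGTCCA and TGACGTCA were in 0 of these 7 windows and in 13.2%, 0.45% and 2.44% of all promoters. The motifs can overlap each other, and a match describes letters in a window, not a bound site. The GC content of the 7 windows ran from 42% in Otc, 44.3% in Asl and 51.3% in Arg1 to 60% in Nags, 64% in Slc25a15, 65.7% in Gls2 and 66.3% in Ass1.

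Values of single libraries are given in the order of replicates 1 to 3. Levels in CPM are counts scaled to 1e+06 mouse counts after TMM normalization. Mouse genes held 703317, 213022 and 913584 counts in the siControl libraries, which was 1.93%, 0.778% and 1.69% of all gene counts, human genes holding the rest. In the siAATF libraries they held 42563694, 11835898 and 34966245 counts, or 99.0%, 97.9% and 98.8%. Group and share of mouse counts therefore went together in every library. The treatment and the portion of tissue taken cannot be told apart in any difference between the groups. A mouse gene with no count in a siControl library could still have a level of 3.28 to 14.1 CPM without normalization (the level of 3 counts), against 0.0705 to 0.253 in siAATF, and such limits cover counting error only. Mitochondrial genes took 4.04% to 10.5% of mouse counts in siControl and 20.8% to 56.1% in siAATF. The siRNA target Aatf was counted 12, 1 and 23 times in siControl and 384, 109 and 340 times in siAATF. Its log2 fold change, siAATF over siControl, was 0.93 (SE 0.47, edgeR adjusted p = 0.152). It was -0.91 when libraries were scaled by total mouse counts alone. Scaled by hepatocyte markers, as described below, it was -2.77 (edgeR adjusted p = 0.00198), where the median of all genes tested was -3.35. The direction thus depended on the scaling, and "siAATF" and "siControl" are used here as the labels of the libraries. Summed marker levels of other cell types moved with the groups. Without TMM, the summed level of 10 fibroblast and stellate markers was 15539 to 25197 CPM in siControl but 168 to 383 CPM in siAATF. That of 10 macrophage and Kupffer markers was 1742 to 3292 and 44.4 to 145 CPM. The summed level of 12 hepatocyte markers was 14515 to 32900 CPM in siControl against 25087 to 85903 CPM in siAATF. Of these 12, 0 were at 0 in every library of a group. In the macrophage and Kupffer list, Lyz2, Cd68, Csf1r and Adgre1 each fell after TMM (edgeR adjusted p under 0.05). Clec4f, Timd4, Marco, Vsig4 and Cd5l of that list had higher means in siAATF after TMM (edgeR adjusted p at least 0.0705). Mrc1 had a lower mean (edgeR adjusted p = 0.421). The fall of the sum thus does not hold for every gene of the list. In bulk tissue, fewer cells of a type and less RNA per cell cannot be told apart.

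All 8 urea cycle genes were higher in siAATF than in siControl after TMM normalization, by 3.58 (Nags) to 6.48 (Otc) on the log2 scale. Each of them passed the test and 0 fell (edgeR's quasi-likelihood test on TMM-normalized counts, Benjamini-Hochberg adjusted p under 0.05 over the 18018 genes). Of all genes tested, 17.6% passed in this direction and 14.4% in the other. The median log2 fold change of the 8 genes was 4.21, against 0.50 over all genes tested. With another call, which combines p under 0.05 before adjustment with a change of 2 or more on the log2 scale, all 8 were again higher, as were 13.6% of all genes. Scaling by total mouse counts lowered the share of calls that were higher from 55% to 9.33% over all genes. All 8 were still called higher, with smaller log2 fold changes of 1.79 (Arg1) to 4.73 (Otc), where the median of all genes was -1.30. For each of the 8, every siAATF library lay above every siControl library, which was so for 34.5% of all genes. The summed counts of the 8 genes were 424, 86 and 388 in the siControl libraries and 166605, 16189 and 117153 in the siAATF libraries. As a share of mouse counts this was 0.0603%, 0.0404% and 0.0425% against 0.391%, 0.137% and 0.335%, with the smallest of the siAATF shares in replicate 2, the library with the largest mitochondrial share. Without mitochondrial genes and the ribosomal RNA gene Rn18s-rs5, the shares were 0.0634%, 0.0472% and 0.0460% against 0.551%, 0.387% and 0.430%. Set over the gene counts of both species, the 8 genes together made up 11.6, 3.14 and 7.18 CPM in siControl and 3876, 1339 and 3311 CPM in siAATF.

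**Figure D1:**
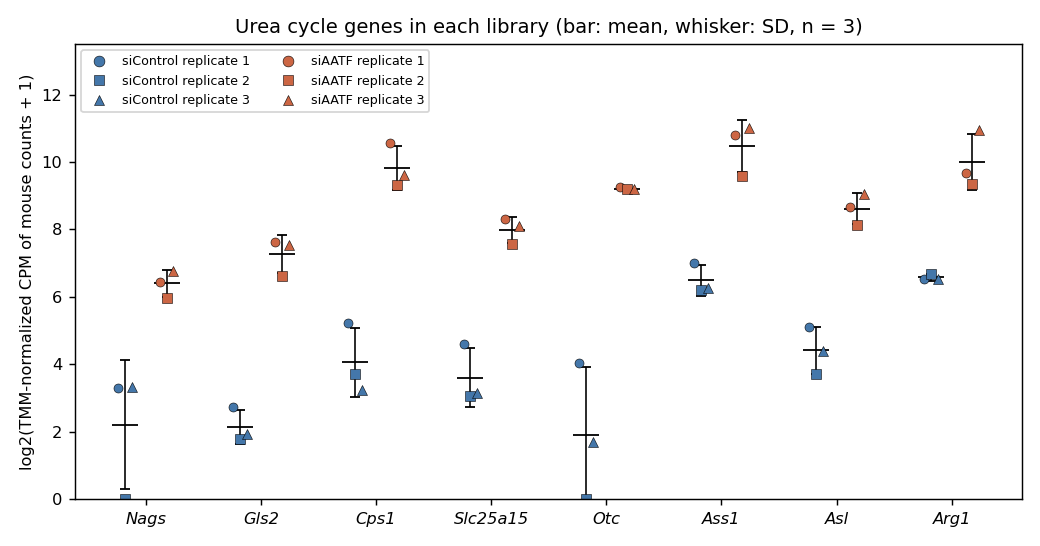
The vertical axis gives log2(CPM + 1) of each urea cycle gene after TMM normalization of the mouse counts, with 1 point per library, a bar for the mean and a whisker for the SD (n = 3). Every siAATF point of a gene lies above its siControl points, and Otc and Nags each have a siControl library at 0.

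Both genes that prepare the entry of ammonia were low in siControl. Gls2 (ENSMUSG00000044005, chromosome 10, 128030326 to 128045808 of GRCm39) was counted 7, 1 and 5 times in siControl and 5705, 481 and 3361 times in siAATF. Its levels were 5.61, 2.41 and 2.79 CPM in the control libraries and 196.6, 96.9 and 186.2 CPM in siAATF. The siControl values lay within a few counts of 0 and the siAATF values were far above them in all 3 libraries. The means were 3.60 ± 1.75 and 160 ± 54.8 CPM (SD, n = 3), a log2 fold change of 5.40 (SE 0.55, edgeR adjusted p = 4.52e-05). Gls2 overlaps Spryd4 on the opposite strand, which was counted 20, 3 and 13 times in siControl and 996, 88 and 923 times in siAATF, and a lncRNA on its own strand (Gm52965) that had no counts in siControl and was counted 80, 16 and 16 times in siAATF. Whether the counting used strand is not stated, so some of these reads could belong to either gene. Nags (ENSMUSG00000048217, chromosome 11, 102036375 to 102040303), which makes the activator of carbamoyl phosphate synthetase, was counted 11, 0 and 16 times in siControl and 2492, 306 and 1952 times in siAATF. Its levels were 8.82, 0 and 8.91 CPM in the control libraries and 85.9, 61.6 and 108.2 CPM in siAATF. Nags was not detected in siControl replicate 2, the shallowest library, in which 3 counts correspond to 7.24 CPM, near the values of the other two. The means were 5.91 ± 5.12 and 85.2 ± 23.3 CPM (SD, n = 3), a log2 fold change of 3.58 (SE 0.56, edgeR adjusted p = 0.000449).

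Otc and Cps1, which carry out the mitochondrial steps of the cycle, had the largest fold changes of the 8 genes, and the ornithine carrier lay near their median. Cps1 (ENSMUSG00000025991, chromosome 1, 67162185 to 67270418), the first and rate-limiting enzyme of the cycle, was counted 45, 5 and 15 times in siControl and 44030, 3142 and 14113 times in siAATF. In CPM these were 36.1, 12.1 and 8.36 against 1518, 633 and 782. Replicate 1 was the highest library of its group on both sides, and the groups were far apart. The means were 18.8 ± 15.1 and 978 ± 474 CPM (SD, n = 3), a log2 fold change of 5.67 (SE 0.74, edgeR adjusted p = 0.000156; 6.64 without siControl replicate 1). Otc (ENSMUSG00000031173, chromosome X, 10118544 to 10187263), which condenses carbamoyl phosphate with ornithine, was counted 19, 0 and 4 times in siControl and 17532, 2910 and 10467 times in siAATF. Its levels were 15.2, 0 and 2.23 CPM in the control libraries and 604, 586 and 580 CPM in siAATF. After TMM the siAATF libraries had an SD of 12.6 CPM around a mean of 590 for Otc, but without TMM they were uneven, at 97.1, 58.0 and 70.6 per kilobase, and the siControl libraries ranged from 0 to 15.2 CPM. The mean in siControl was 5.82 ± 8.23 CPM (SD, n = 3), and the log2 fold change of 6.48 (SE 0.83, edgeR adjusted p = 0.000139) therefore rests on a control level of few counts, since 0 counts in siControl replicate 2 still allow 7.24 CPM, and it was 8.43 without siControl replicate 1. Slc25a15 (ENSMUSG00000031482, chromosome 8, 22865567 to 22888613), the carrier that exchanges ornithine for citrulline across the inner mitochondrial membrane, was counted 29, 3 and 14 times in siControl and 9164, 926 and 4957 times in siAATF. The CPM values were 23.3, 7.24 and 7.80 against 315.9, 186.6 and 274.7. Again siControl replicate 1 was above the other two libraries of its group. The means were 12.8 ± 9.09 and 259 ± 66.1 CPM (SD, n = 3), a log2 fold change of 4.28 (SE 0.56, edgeR adjusted p = 0.000153; 5.08 without siControl replicate 1).

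Ass1 and Arg1, both cytosolic, had the most counts of the 8 genes in siControl. Ass1 (ENSMUSG00000076441, chromosome 2, 31360219 to 31410684), which joins citrulline to aspartate, was counted 158, 30 and 135 times in siControl and 52028, 3816 and 37369 times in siAATF. Its levels were 126.7, 72.4 and 75.2 CPM in the control libraries and 1793, 769 and 2070.5 CPM in siAATF. The lowest siAATF library was replicate 2, and it was still above all siControl libraries. The means were 91.4 ± 30.6 and 1544 ± 686 CPM (SD, n = 3), a log2 fold change of 4.07 (SE 0.63, edgeR adjusted p = 0.000438). Asl (ENSMUSG00000025533, chromosome 5, 130040099 to 130058088), which splits argininosuccinate into arginine and fumarate, was counted 42, 5 and 36 times in siControl and 11821, 1372 and 9455 times in siAATF. In CPM these were 33.7, 12.1 and 20.1 against 407, 276 and 524. The log2 fold change of Asl was 4.14 (SE 0.54, edgeR adjusted p = 0.000147), from means of 21.9 ± 10.9 and 403 ± 124 CPM (SD, n = 3), with no overlap of the groups. Arg1 (ENSMUSG00000019987, chromosome 10, 24791119 to 24803382), which releases urea from arginine and is also made by some macrophages, was counted 113, 42 and 163 times in siControl and 23833, 3236 and 35479 times in siAATF. Its levels were 90.6, 101.3 and 90.8 CPM in the control libraries and 821, 652 and 1966 CPM in siAATF. Arg1 was the most even of the 8 genes in siControl and was uneven in siAATF, where replicate 3 was far above the other two. The means were 94.3 ± 6.14 and 1146 ± 715 CPM (SD, n = 3), a log2 fold change of 3.61 (SE 0.60, edgeR adjusted p = 0.000709). Ass1 and Arg1 were the only 2 of the 8 genes with 10 counts or more in each library. The lowest value reached by any of the 8 genes under another setting was an Arg1 log2 fold change of 1.79 with scaling by total mouse counts, where the median of all genes was -1.30.

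Compared per length, Arg1 and Ass1 stood above the other urea cycle genes in both groups. Levels were counts per kilobase of the deposited gene length, divided by the mouse total of the library in CPM fashion, without TMM. In siControl, Arg1 was at 121 ± 12.4 and Ass1 at 101 ± 27.4 (SD, n = 3). The next gene was Asl at 13.7 ± 6.09, followed by Slc25a15 at 6.86 ± 4.47, Cps1 at 6.23 ± 4.62, Nags at 5.45 ± 4.74, Gls2 at 2.61 ± 1.10 and Otc at 2.47 ± 3.42. The only neighbours in this order whose ranges over the libraries did not overlap were Ass1 and Asl, and within each library Asl was also above Slc25a15. In siAATF, Ass1 was at 514 ± 284 and Arg1 at 417 ± 253, and Cps1 followed at 102 ± 73.8. Below them were Otc at 75.2 ± 19.98, Asl at 74.2 ± 30.6, Slc25a15 at 42.3 ± 19.998, Gls2 at 35.1 ± 18.3 and Nags at 23.0 ± 8.95. The ranges of each pair of neighbours in the siAATF order overlapped. Within each siAATF library, however, Arg1 was above Cps1, Asl above Slc25a15, Slc25a15 above Gls2 and Gls2 above Nags, whereas the order of Cps1 and Otc and that of Otc and Asl changed between libraries. Ass1 was above Arg1 in siAATF replicates 1 and 2 and below it in replicate 3.

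Cps1, Otc and Gls2 each made up a larger part of the urea cycle RNA in every siAATF library than in any siControl library. Otc moved from the last place by level in siControl to the fourth in siAATF, and Cps1 from the fifth to the third. The share of Cps1 in the summed level per length of the 8 genes was 3.81%, 1.80% and 1.23% in the siControl libraries and 11.5%, 8.37% and 4.38% in the siAATF libraries. Otc held 2.10%, 0% and 0.430% of it in siControl and 6.00%, 10.2% and 4.26% in siAATF. The share of Gls2 was 1.28%, 0.778% and 0.885% in siControl and 3.22%, 2.77% and 2.25% in siAATF. The other mitochondrial genes overlapped between the groups, with 2.55%, 0% and 3.59% against 1.78%, 2.23% and 1.66% for Nags, and 3.97%, 1.75% and 1.86% against 3.88%, 3.99% and 2.49% for Slc25a15. Arg1 took 35.9%, 56.9% and 50.3% in siControl and 23.4%, 32.4% and 41.5% in siAATF, which overlapped. The share of Ass1 was 43.8%, 35.4% and 36.3% against 44.5%, 33.3% and 38.0%, with the groups interleaved. In the test over libraries of the log2 ratio per length, Ass1 was 4.18 above Cps1 in siControl and 2.35 above it in siAATF, a difference of -1.82, and Asl moved from 1.28 above to 0.33 below Cps1 (siAATF mean -0.33, difference -1.60). Neither ratio overlapped between the groups (p = 0.1 by a two-sided exact permutation test, the lowest possible with 3 libraries a group, and 0.12 after Benjamini-Hochberg adjustment over 12 ratios). The ratios of Arg1 to Cps1 (difference -2.39) and of Otc to Cps1 (difference 1.53) overlapped (exact permutation p = 0.2, adjusted 0.2). Without siControl replicate 1 or siAATF replicate 3 the first difference was -3.01 or -2.98, and without siControl replicate 2 the second was 0.88.

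**Figure D2:**
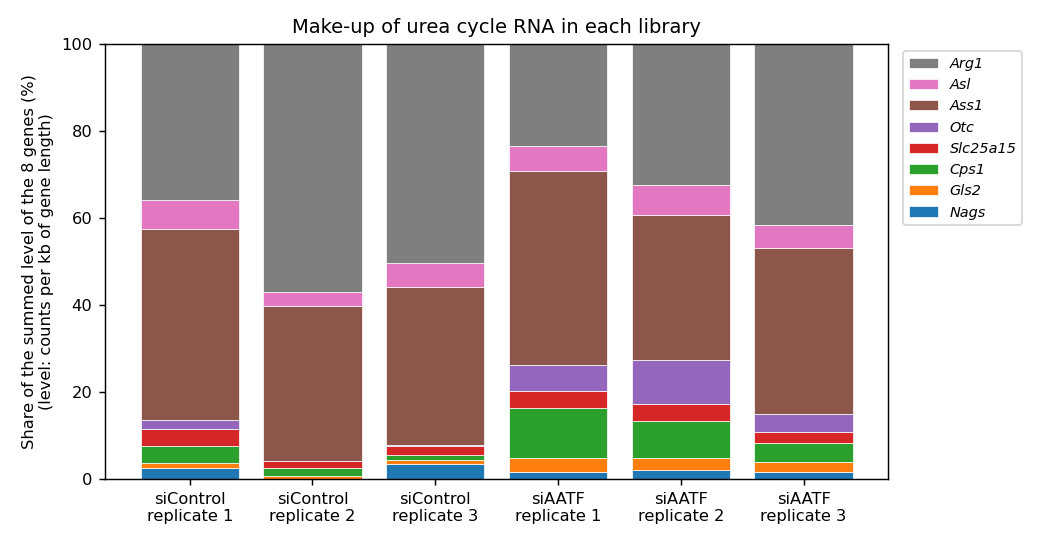
Each bar divides the summed level per kilobase of the 8 urea cycle genes in 1 library into the percentage held by each gene. Arg1 and Ass1 fill most of every bar, and the Cps1 segment is 1.23% to 3.81% in siControl and 4.38% to 11.5% in siAATF.

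To compare the urea cycle genes with other hepatocyte RNA, each library was also scaled by the geometric mean of 12 hepatocyte markers: Alb, Apoa1, Apoa2, Apob, Apoc3, Apoh, Ttr, Trf, Ahsg, Ambp, Rbp4 and Serpinc1. Of these, 11 were themselves called higher in siAATF in the TMM fit, Alb by 4.23 on the log2 scale (edgeR adjusted p = 0.00687; 0.0543 without siControl replicate 2 and 0.0828 without siControl replicate 3). On the hepatocyte scale 2 of the 8 urea cycle genes, Otc and Cps1, were called higher and 0 lower, where 0.672% of all genes were called higher and 65.2% lower. Otc was higher by 3.22 (SE 0.85, edgeR adjusted p = 0.000332; 4.21 without siControl replicate 1) and Cps1 by 2.01 (SE 0.78, edgeR adjusted p = 0.0165). The call of Cps1 was lost without siControl replicate 3 (1.78, adjusted p = 0.139) or without siAATF replicate 1 (1.77, adjusted p = 0.0810). The value for Gls2 was 1.61 (SE 0.88, edgeR adjusted p = 0.0966). It was called when the summed counts of the markers set the scale (2.20, adjusted p = 0.00992) and with another list of 14 hepatocyte genes, 13 of them called higher in the TMM fit (2.00, adjusted p = 0.0385). The other five had values of 0.61 (Slc25a15), 0.29 (Asl), -0.01 (Ass1), -0.21 (Nags) and -0.67 (Arg1), the last with an adjusted p of 0.434. For Ass1, Nags and Arg1 the sign depended on how the hepatocyte scale was set. The hepatocyte markers themselves ran from -2.34 (Trf) to 2.34 (Apoa2) on this scale with 1 called in each direction, and Otc was the only urea cycle gene outside that range.

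**Figure D3:**
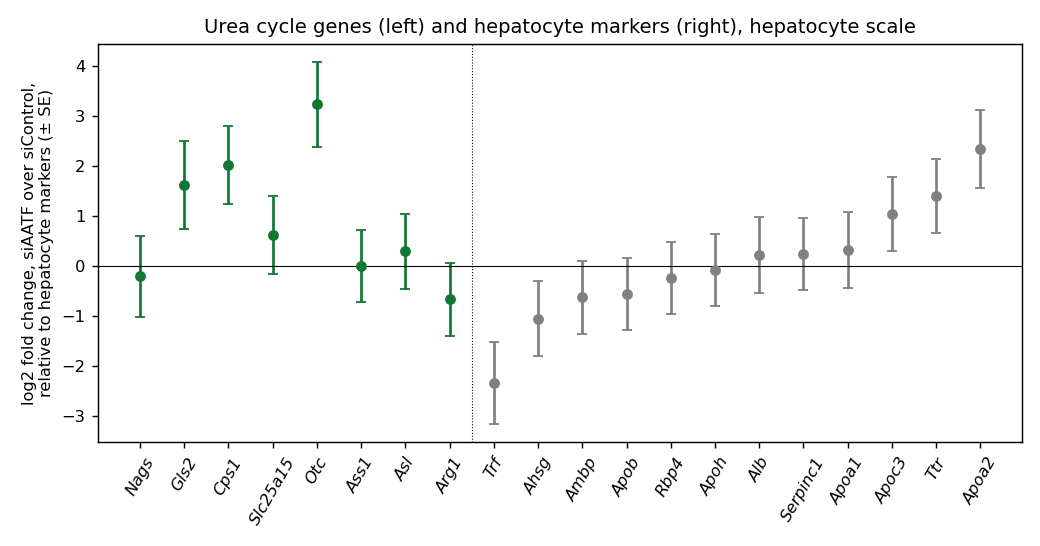
Points give the fitted log2 fold change of siAATF over siControl relative to 12 hepatocyte markers, with whiskers of 1 SE, for the 8 urea cycle genes (left) and the markers themselves (right). Otc at 3.22 is above the highest marker, Apoa2 at 2.34, and Arg1 at -0.67 is the lowest urea cycle gene.

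The values behind this comparison separated the groups for Otc, Cps1 and Gls2. The log2 level of Otc relative to the hepatocyte scale was -5.58, -7.51 and -6.78 in the siControl libraries and -3.45, -2.41 and -3.87 in the siAATF libraries. For Cps1 it was -4.36, -4.05 and -4.99 against -2.12, -2.30 and -3.44. For Gls2 it was -6.96, -5.92 and -6.49 against -5.07, -5.00 and -5.51. The value of -7.51 for Otc stands for 0 counts and is set by the added 0.5. These 3 of the 8 genes had every siAATF library above every siControl library (p = 0.1 for each by the same exact permutation test, the lowest possible), as had 0.538% of all genes on this scale. Ass1 differed least, with -2.55, -1.58 and -1.86 in siControl against -1.88, -2.02 and -2.04 in siAATF and a difference of 0.02 between the means (exact permutation p = 1). Arg1 was at -3.04, -1.10 and -1.59 against -3.01, -2.26 and -2.11, and its groups overlapped (exact permutation p = 0.5).

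Several urea cycle enzymes have a counterpart that works in other cells or another pathway, and the ratio of both was compared within each library. Arg2, the mitochondrial arginase found in many tissues, fell in siAATF (log2 fold change -4.22, SE 0.72, edgeR adjusted p = 0.000830), from 10, 5 and 21 counts in siControl against 6, 4 and 14 in siAATF at many times the depth. The log2 ratio per length of Arg1 to Arg2 was 3.39, 2.90 and 2.88 in the siControl libraries and 11.8, 9.44 and 11.2 in the siAATF libraries. Arg1 was thus the more abundant arginase RNA in all 6 libraries, and the ratio was 7.76 higher in siAATF on the log2 scale (8.44 without siAATF replicate 2). Cad, which starts pyrimidine synthesis with the cytosolic carbamoyl phosphate synthetase, was not called (-0.04, edgeR adjusted p = 0.965), its sign depended on the setting, and with scaling by total mouse counts it was called lower (-1.87, adjusted p = 0.00842). The log2 ratio of Cps1 to Cad was 1.54, 2.26 and -0.28 in siControl and 7.99, 5.95 and 6.21 in siAATF. Neither of these ratios overlapped between the groups (two-sided exact permutation test, p = 0.1, adjusted 0.12).

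Glutamine synthetase, the enzyme of the hepatocytes around the central vein, was compared with the ammonia-consuming and ammonia-releasing genes of the cycle. Glul was counted 262, 23 and 188 times in siControl and 32750, 4368 and 13645 times in siAATF, and rose by 2.89 (SE 0.59, edgeR adjusted p = 0.00247), a call that scaling by total mouse counts ended (1.14, adjusted p = 0.128), and by 3.49 without siControl replicate 1. The log2 ratio per length of Cps1 to Glul was -3.26, -2.82 and -4.33 in siControl against -0.30, -1.20 and -0.68 in siAATF, which differ by 2.74. For Gls2 to Glul it was -4.75, -3.59 and -4.72 against -2.14, -2.80 and -1.64, a difference of 2.16. Both ratios stayed below 0 in all libraries and kept the groups apart (two-sided exact permutation test, p = 0.1, adjusted 0.12). All 8 periportal markers outside the urea cycle were called higher in siAATF and 7 of 8 pericentral markers were, with median log2 fold changes of 4.37 and 3.70, against 17.6% called higher and a median of 0.50 over all genes. On the hepatocyte scale each of these lists had 1 gene called higher and 1 lower, with medians of 0.86 and 0.23, where 0.672% of all genes were higher and 65.2% lower with a median of -3.35. Arginine is also the substrate of the nitric oxide synthases. Nos2, the inducible form found in activated macrophages, was counted 51, 19 and 108 times in siControl and 0, 1 and 3 times in siAATF, and fell (edgeR adjusted p = 2.13e-05). The counts in siAATF were too few for a ratio of Arg1 to Nos2 that does not rest on the pseudocount. Nos3, the endothelial form, fell by 1.89 (SE 0.50, edgeR adjusted p = 0.0116; 1.53 without siControl replicate 3, adjusted p = 0.142). The log2 ratio of Ass1 to Nos3 was 5.07, 3.52 and 3.18 in siControl and 9.99, 9.66 and 9.97 in siAATF (exact permutation p = 0.1, adjusted 0.12). Slc25a2, a second ornithine carrier, had 0 counts in the siControl libraries and 9, 1 and 3 in siAATF, which gives no usable ratio to Slc25a15.

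**Figure D4:**
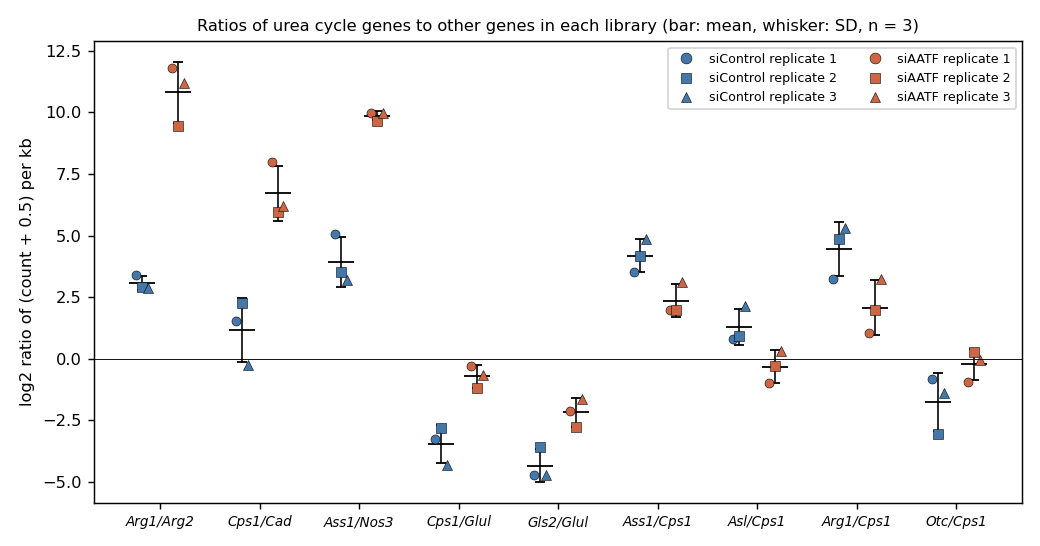
The vertical axis gives the log2 ratio of 2 genes per kilobase in each library, with 0.5 added to each count, and bars and whiskers give the mean and SD (n = 3). The ratios of Arg1 to Arg2 lie more than 6 units apart between the groups, while those of Arg1 and Otc to Cps1 overlap.

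Most of the tested genes of ammonia, glutamine and amino acid metabolism were called higher in siAATF after TMM normalization. Of 37 such genes, 35 were tested, 26 were called higher in siAATF, 4 lower and 5 neither way, with a median log2 fold change of 3.05 (edgeR adjusted p under 0.05; over all genes 17.6% were higher and 14.4% lower, with a median of 0.50). The largest rises were those of Hpd, an enzyme of tyrosine breakdown (7.16, SE 0.77), and Car5a, the mitochondrial carbonic anhydrase that supplies bicarbonate to Cps1 (6.64, SE 0.75). Car5a was counted 4, 0 and 4 times in siControl and 4175, 2025 and 2195 times in siAATF, and unlike Cps1 its CPM was highest in siAATF replicate 2. Prodh and Prodh2, which break down proline and hydroxyproline, rose by 6.11 and 5.30. Tdo2, the first enzyme of tryptophan breakdown, rose by 5.47 and Sds, which releases ammonia from serine, by 5.29, the edgeR adjusted p of these 6 genes being at most 0.000235. Few control counts lie behind these sizes, since Sds was counted 2, 1 and 1 times in siControl against 968, 118 and 1521 times in siAATF, and Prodh 4, 1 and 5 times against 5905, 984 and 3570 times. Prodh2 and Tdo2 both had 0 counts in siControl replicate 2. Without siControl replicate 1, Hpd was at 7.996, Tdo2 at 6.23 and Prodh2 at 6.00, without siAATF replicate 2 Car5a was at 5.94, and Sds was at 4.66 without siControl replicate 3 and 4.64 without siAATF replicate 3. Those called lower included Aldh18a1, which makes a precursor of proline (-4.21), and the glutamine importer Slc1a5 (-3.29), with an edgeR adjusted p of at most 0.000396. Prodh and Prodh2, which are catabolic, and the biosynthetic Aldh18a1 thus had opposite directions. On the hepatocyte scale the list had 5 of 35 genes called higher and 12 lower, with a median of -0.64, against 0.672% higher, 65.2% lower and a median of -3.35 over all genes tested. Scaling by total mouse counts left 16 of the 35 called higher and 8 lower, where 748 of 18018 genes were higher and 7267 lower.

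Among genes that use arginine for other products, more were called lower than higher in siAATF. Of 25 genes of arginine use and polyamine synthesis, 24 were tested, 3 were called higher, 12 lower and 9 neither way, with a median log2 fold change of -1.05, where 17.6% of all genes were higher and 14.4% lower. The number called higher was 5 without siAATF replicate 3 and 5 with the replicate number as a block. The falls included Smox, which oxidizes spermine (-4.34, SE 0.47), Gatm, the first enzyme of creatine synthesis from arginine (-3.67, SE 0.58), and Slc7a7, an arginine transporter (-3.51, SE 0.41), each with an edgeR adjusted p of at most 0.000473. Gamt, the second enzyme of creatine synthesis, rose by 4.50 (SE 0.58, edgeR adjusted p = 0.000143), in the opposite direction to Gatm. Agmat, which splits agmatine, rose by 3.96 (SE 0.66, edgeR adjusted p = 0.000727). Without siControl replicate 1, Gamt was at 5.31 and Agmat at 5.71. The third rise, that of Amd1, which supplies the aminopropyl group for polyamines, was small (1.34, edgeR adjusted p = 0.0495), was called under 3 of the 16 alternatives run for it, and was -0.45 with scaling by total mouse counts. With that scaling 2 genes of this list were called higher and 15 lower, against 748 and 7267 of the 18018 genes tested. The macrophage and Kupffer list had 0 genes called higher and 4 lower of 10. These 4 were Lyz2, Cd68, Csf1r and Adgre1, and Clec4f, Timd4, Marco, Vsig4 and Cd5l were not among them. The neutrophil list had 0 and 5 of 8, and the endothelial list 1 and 4 of 8. The fibroblast and stellate list had 0 and 8 of 10, and the cholangiocyte list 0 and 2 of 5 tested. All are to be read against the same 17.6% and 14.4% of all genes. The part of these cells in the level of Arg1 and in the falls of Nos2, Arg2, Smox and Gatm was not tested.

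**Figure D5:**
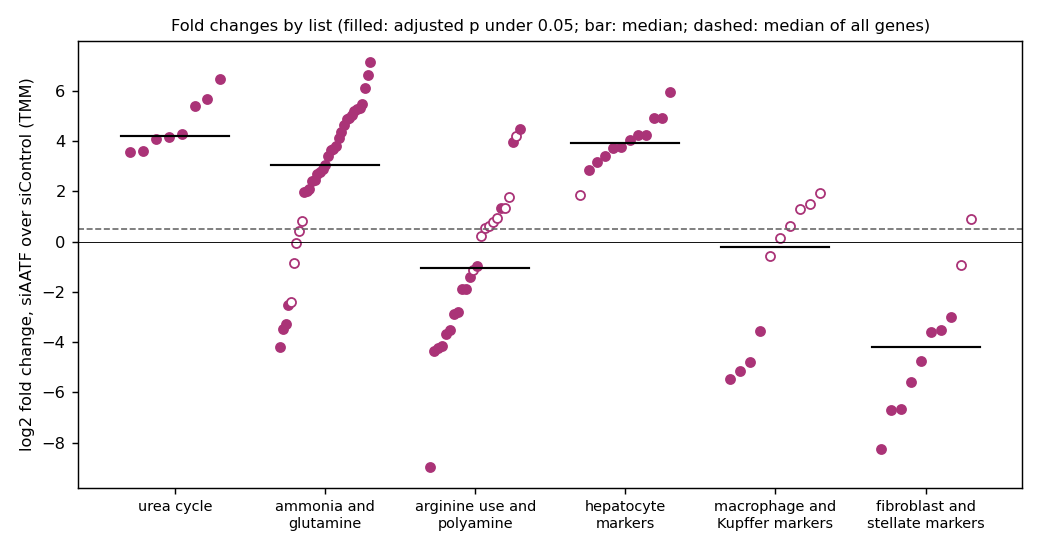
Each point is the log2 fold change of 1 gene, siAATF over siControl after TMM normalization, filled where the adjusted p was under 0.05, with a bar at the median of each list and a dashed line at the median of all genes, 0.50. The urea cycle genes run from 3.58 to 6.48 (median 4.21) and the hepatocyte markers from 1.87 to 5.95 (median 3.92), while arginine use and polyamine genes (median -1.05) spread to both sides.

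The urea cycle genes lay at different distances from their own mean profile. The root mean square distance of a gene's centred log2(CPM + 1) profile over the 6 libraries from the mean profile of the 8 was 0.283 for Gls2, 0.285 for Slc25a15 and 0.322 for Asl. It was 0.518 for Ass1, 0.681 for Cps1, 0.831 for Nags and 0.934 for Arg1. Otc was farthest at 1.45. Of 9108 other protein-coding genes with a mean of at least 50 counts, the 5 whose profiles lay nearest to this mean were Pipox, a peroxisomal sarcosine oxidase (0.113), Cyp2d10, a cytochrome P450 (0.189), Tmem205 (0.191), Gamt (0.192) and Timd2 (0.225). Pipox had a CPM of 19.2, 4.83 and 8.36 in siControl and 283, 207 and 308 in siAATF. These distances describe likeness over 6 libraries that share the group difference. Profiles were centred but not scaled, so the size of a fold change enters the distance, as does a level of 0. Each of the 8 genes also entered the mean it was compared with.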

How the data were processed

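Bulk RNA-seq libraries of liver tissue were analysed, 3 siControl and 3 siAATF, grouped by the sample labels. The authors aligned reads with STAR 2.7.11 to the human (GRCh38) and mouse (GRCm39) genomes joined into one reference, discarded multi-mapping reads and reads matching both species, and deposited raw gene counts from featureCounts 2.0.1 with gene lengths. The SMART-Seq library kit includes PCR amplification. Human counts were used for totals only, 1 human gene broken over 3 lines was left out, and human genes were not matched to the 8 mouse genes. Whether reads of human orthologs reached mouse genes was not tested. Names came from gencode vM39 (56323 of 56884 identifiers found).

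Mouse genes reaching 10 counts over all libraries were tested with edgeR 4.0.16 (quasi-likelihood, TMM, group only, limma 3.58.1, R 4.3.3). DESeq2 1.42.0, the program of the authors, was an alternative. The hepatocyte scale replaced TMM by the geometric mean of count + 0.5 over 12 markers. Ratios used two-sided exact permutation tests. On simulated counts the fit was tested first. Figures used Python 3.11.15 and matplotlib 3.10.9. The members and lists were chosen with earlier results of these data known. Genes named besides the 8 were Aatf, Alb, the ratio partners and the 5 nearest profiles. The 6 largest called rises and 4 largest called falls of each list with a mean of at least 20 counts were also named. Genes of the macrophage and Kupffer list were named apart from this rule. Some items covered by this rule are not reported here.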

Additional observations from a re-analysis of the deposited data

How the results depend on the processing

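All 8 urea cycle genes kept their direction and their call in each alternative in which they could be tested (130 values over 17 alternatives: DESeq2, limma-voom, other scalings and filters, thinning, the replicate block, leaving out each replicate, and, added after seeing the data, leaving out mitochondrial genes and Rn18s-rs5; hepatocyte markers without Trf were also added), and these values ran from 1.79 (Arg1, scaling by total mouse counts) to 8.43 (Otc, without siControl replicate 1). With at least 10 counts in every library only 2 of the 8, Ass1 and Arg1, could be tested and both were called, while the ammonia list had 6 genes called higher and 1 lower, the arginine list 0 higher and 6 lower, and 0 urea cycle genes were called on the hepatocyte scale, since fewer genes were tested. Scaling by total mouse counts, which moved the share of calls that were higher from 55% to 9.33%, gave 16 higher and 8 lower for the ammonia list. Leaving out each replicate gave 2 to 5 higher calls for the arginine list, the 5 without siAATF replicate 3, and 1 to 2 on the hepatocyte scale. Scaling by total mouse counts turned Aatf to -0.91 and Amd1 to -0.45. Some falls were much larger under an alternative, reaching -8.87 for Gatm, -5.56 for Slc1a5 and -4.99 for Nos3, against -3.67, -3.29 and -1.89. limma-voom turned Slc25a2 to -0.92 and Cad to 0.024, and Cad was 0.070 without a filter, -0.35 to 0.27 with replicates left out, and called lower at -1.87 with scaling by total mouse counts. On the hepatocyte scale, summed marker counts turned Ass1 to 0.67, Arg1 to 0.043 and Nags to 0.40, the second hepatocyte list turned Ass1 to 0.35 and Nags to 0.093, and leaving out Alb turned Ass1 to 0.0078. With replicates left out, Ass1 ran from -0.24 to 0.20 there and Nags from -0.53 to 0.75. Alb lost its call without siControl replicate 2 (adjusted p = 0.0543) or 3 (0.0828). Causes of these changes were not tested beyond the number of genes tested. Among 790 alternative values of single genes and ratios, 747 kept direction and call, as did 124 of 136 list counts within 1.5 times.

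The replicate numbers were shared between the groups, but deviations of same-numbered libraries from their group means correlated at 0.145, 0.212 and -0.0229, so the numbers were not taken to pair the samples. With the replicate number as a block, the arginine list had 5 genes called higher in place of 3, Ass1 was 0.036 on the hepatocyte scale, and the 8 urea cycle genes stayed called. Depth limits 6 of the 8 genes most, all but Ass1 and Arg1, since they had 5 or fewer counts each in siControl replicate 2.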
